A study of Mus musculus with 4 samples.

Results

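The genes described here are 33 members of the unfolded protein response of the endoplasmic reticulum (ER) and of the amino acid response run by the transcription factor ATF4. They were taken by name for their known roles in folding, ER-associated degradation, stress sensing and amino acid synthesis, and all 33 had a probe set named for that gene alone, out of 18193 genes so measured. Where a gene had several such probe sets, the one with the highest mean over the arrays was used. Each gene was followed on 4 one-colour Affymetrix arrays, hybridised with total RNA of epithelial cells from the small intestine of C57BL/6J mice that were adult, 10 weeks old, healthy and specific pathogen-free. The arrays were labelled AP-1B+/- (2 arrays, called heterozygous 1 and 2) and AP-1B-/- (2 arrays, called knockout 1 and 2). AP-1B is the epithelial form of a clathrin adaptor that sorts proteins to the basolateral membrane, and the group compared with the knockout is by its label heterozygous, since no wild-type array was analysed here. The labels do not tie the arrays to named animals. Per the labels the cells were loosened with EDTA and gathered by hand under a microscope, with no sort.

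When client proteins pile up in the ER lumen, 3 sensors in the ER membrane respond. IRE1 (Ern1, and Ern2 in gut epithelium) splices the mRNA of Xbp1, ATF6 is cut in the Golgi to free a transcription factor, and PERK (Eif2ak3) phosphorylates the initiation factor eIF2, which slows translation while that of ATF4 goes on. XBP1 and ATF6 raise chaperones and degradation factors through ER stress elements in promoters. ATF4 is also reached through GCN2 (Eif2ak4), the sensor of uncharged tRNA, and drives amino acid synthesis, import and tRNA charging. In the intestine the response is best known from the secretory Paneth and goblet cells, which fold large loads of secreted protein.

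Sequences of the promoters were searched first for the ER stress element. The search itself did not use the array values. The genes and motifs were, however, chosen for known roles in this response and with earlier results of these data known. A high share among the members therefore follows from that choice and is no independent result. RefSeq promoter windows (build GRCm38.p6, 250 bases before to 50 after a transcription start, 300 in all) were found for 29 of the 33 genes. The element was searched on both strands as CCAAT, then 9 bases of any kind, then CCACG. It lay in the window of 9 of the 29 genes, against 0.137% of all 27025 genes with a window. These matches are shown 5′ to 3′ on the strand of the element, with the fixed bases in capitals.

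Hspa5: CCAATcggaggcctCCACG
Hsp90b1, nearer match: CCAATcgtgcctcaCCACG
Hsp90b1, farther match: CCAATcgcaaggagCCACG
Calr: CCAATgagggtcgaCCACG
Canx: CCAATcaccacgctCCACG
Dnajc3: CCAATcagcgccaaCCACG
Creld2: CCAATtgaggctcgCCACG
Pdia6: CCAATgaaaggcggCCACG
Syvn1: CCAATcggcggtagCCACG
Derl3: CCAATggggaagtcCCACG

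Of the 10 matches, 6 ran in the direction of the gene, and their first base in the window lay 44 to 212 bases before the start site. A second form of the element, ATTGG, 1 base of any kind and CCACG, was found in the window of Herpud1 and in 0.0444% of all genes. The core of the C/EBP-ATF response element, TGATGCAA on either strand, through which ATF4 acts, was found in the windows of Herpud1 and Chac1 and in 1.03% of all genes. The core of the UPR element, TGACGTGG, was in no member's window and in 0.714% of all genes, which says only that these letters are not in these windows. The searched motifs shared no bases in the windows of the members. A match is a description of letters and not of a bound site. The 3 windows below show the start-proximal element of the chaperone gene Hspa5, the pair of element types in Herpud1, and the ATF4-type core of Chac1, with the matches in capitals.

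Hspa5, chr2:34771840-34772139, plus strand: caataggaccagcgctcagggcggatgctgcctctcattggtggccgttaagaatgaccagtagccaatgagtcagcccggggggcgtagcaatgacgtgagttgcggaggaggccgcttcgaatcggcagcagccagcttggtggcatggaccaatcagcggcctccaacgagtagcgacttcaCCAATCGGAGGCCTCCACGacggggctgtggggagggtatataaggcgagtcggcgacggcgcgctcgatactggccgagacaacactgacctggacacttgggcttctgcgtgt
Herpud1, chr8:94386179-94386478, plus strand: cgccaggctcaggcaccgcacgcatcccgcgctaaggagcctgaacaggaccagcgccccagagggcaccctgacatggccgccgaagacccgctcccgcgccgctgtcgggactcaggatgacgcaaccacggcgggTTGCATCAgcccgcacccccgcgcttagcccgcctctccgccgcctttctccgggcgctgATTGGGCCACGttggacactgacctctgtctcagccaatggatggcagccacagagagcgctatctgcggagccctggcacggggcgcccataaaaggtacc
Chac1, chr2:119350992-119351291, plus strand: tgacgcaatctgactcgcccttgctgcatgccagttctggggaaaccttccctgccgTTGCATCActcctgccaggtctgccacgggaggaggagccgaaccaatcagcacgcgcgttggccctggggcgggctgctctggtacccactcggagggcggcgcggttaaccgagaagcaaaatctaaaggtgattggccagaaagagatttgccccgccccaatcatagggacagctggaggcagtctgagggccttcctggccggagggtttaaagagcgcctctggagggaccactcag

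Before the values are compared, 3 features of the arrays have to be stated. The signal of Ap1m2, which encodes the AP-1B subunit, went against the labels. It was 19.9, 4.33, 2.49 and 22.3 on the arrays labelled heterozygous 1, heterozygous 2, knockout 1 and knockout 2, an order kept for every set of 4 values given here. The position of its 1 probe set relative to the disrupted part of the gene is not stated in the labels, so the array names are labels only. Whether the labels of heterozygous 2 and knockout 2 were exchanged was not tested, and every labelled difference, standard error and p-value below rests on the labels as given. Xist and the Y-linked Eif2s3y differed by replicate number, with Xist at 0.349, 30.3, 0.070 and 60.1, so that both arrays numbered 1 had the male and both numbered 2 the female pattern. Each label thus held an array of either pattern, so its 2 arrays did not come from 1 animal, and the spread within a label includes this difference. Replicate number and this pattern cannot be told apart. Values are multiples of the array median, which was 0.996 to 0.998, but the 75th percentile was 4.13, 5.54, 5.57 and 4.27. Bright genes therefore read higher on heterozygous 2 and knockout 1 as a rule. The median gene lay −0.22, 0.23, 0.19 and −0.18 from its own mean over the arrays on the log2 scale, which quantile normalization brought to between −0.01 and 0.02. Counts over the members and the values of some genes are for this reason given on both scales. Where quantile normalization is not named, values are as deposited. All 8 epithelial markers examined, among them Epcam and Vil1, were above the array median on each array, with summed signals of 1520, 1953, 2177 and 1379.

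By label, no member passed. In limma over 22519 kept probe sets, 0 of the 33 genes had an adjusted p under 0.05, where 0% of all probe sets did. The adjusted p was 0.99991 for each. At an unadjusted p under 0.05 the count was also 0 of 33, against 0.755% of all probe sets (170 of 22519). The median log2 difference, knockout minus heterozygous, was 0.03 over the 33 genes and 0.004 over all 11326 kept genes. The difference was positive at 20 genes and negative at 13. Both arrays labelled knockout lay above both labelled heterozygous at 0 of 33 genes, against 5.51% of all genes, and below both at 4, which were Dnajb9, Derl3, Ern1 and Sesn2, against 10.9%. After quantile normalization the counts were 2 (Xbp1 and Atf4), against 11.8%, and 5 (Herpud1, Derl3, Atf6, Trib3 and Sesn2), against 11.0%. These shares were near or below those of all genes. The median turned with single arrays, to −0.27 without heterozygous 1, 0.33 without heterozygous 2, −0.29 without knockout 1 and 0.34 without knockout 2, where the medians of all genes were −0.23, 0.23, −0.18 and 0.19.

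The order of the arrays cut across the labels at most members. The 2 highest values were those of heterozygous 2 and knockout 1 at 27 of 33 genes, against 56.7% of all genes. After quantile normalization this was so at 14 of 33, against 27.8%. These are also the 2 arrays with the lower Ap1m2 signal and the higher 75th percentile, and the part of either in this order was not tested. The array labelled knockout 1 was the highest at 18 of 33 genes, against 42.6%, and after quantile normalization at 16 of 33, against 35.6%. Counts of 2-fold differences are on the log2(value + 0.32) scale. Within the arrays numbered 1, knockout 1 was at least 2-fold above heterozygous 1 at 10 of 33 genes, against 20.3% of all, and at least 2-fold below at 1, against 6.65%. Within the arrays numbered 2, knockout 2 was 2-fold above heterozygous 2 at 0 genes, against 2.31%, and 2-fold below at 4 (Creld2, Pdia6, Asns and Phgdh), against 8.04%. Without the pseudocount Chac1 and Trib3 were also below that mark, at 0.446 and 0.487 times. The median difference was 0.72 within the arrays numbered 1 (0.40 for all genes) and −0.67 within those numbered 2 (−0.40 for all genes), so that the labelled comparison ran in opposite directions in the pairs. With 1 array on each side, these counts have no replicate check.

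**Figure D1:**
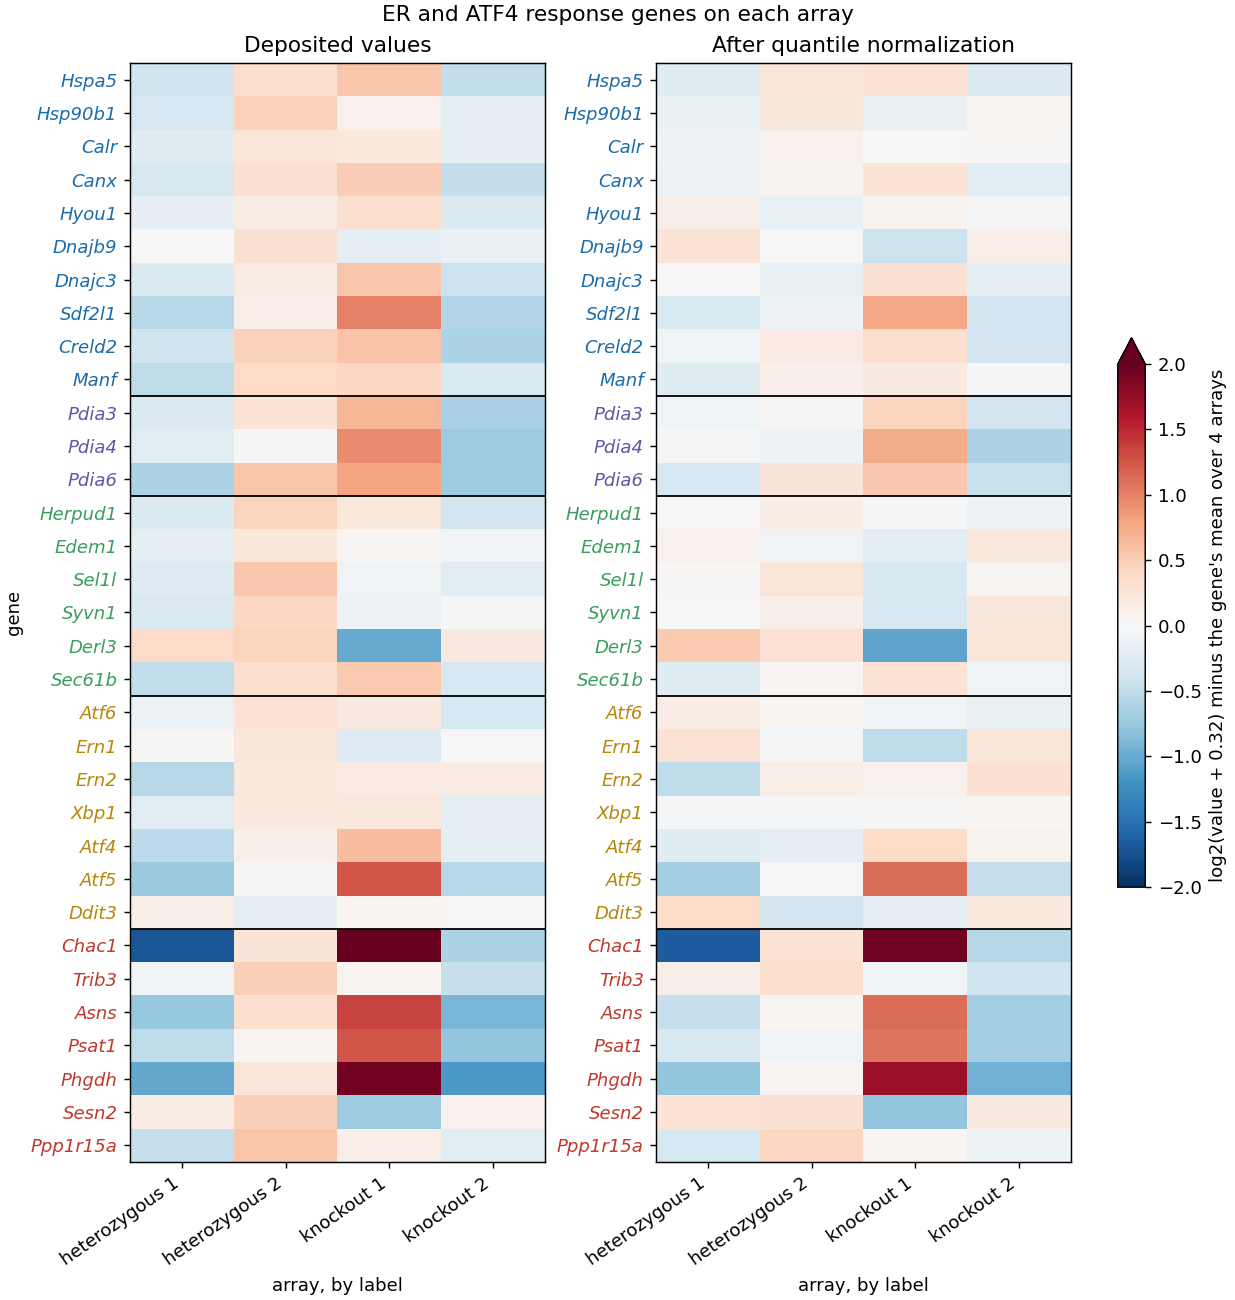
Colour shows log2(value + 0.32) of each gene minus its mean over the 4 arrays (columns), for the deposited values on the left and after quantile normalization on the right, with genes in rows grouped by role. Most chaperone rows are red on heterozygous 2 and knockout 1 on the left and paler on the right, while Atf5, Chac1, Asns, Psat1 and Phgdh stay red on knockout 1 in both panels.

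The ER chaperones came first in the order of roles. Hspa5 encodes BiP, the Hsp70 of the ER lumen that also keeps the stress sensors inactive, and it had signals of 177, 294, 341 and 166. The value of knockout 1 was 1.93 times that of heterozygous 1, and that of knockout 2 was 0.563 times that of heterozygous 2. The labelled groups overlapped, with means of 236 ± 83.3 and 254 ± 124 (SD, n = 2 each) and a log2 difference of 0.06 (standard error, SE, 0.47). After quantile normalization Hspa5 read 197, 277, 284 and 193, so heterozygous 2 and knockout 1 remained above the other arrays. The second kept probe set of Hspa5 had the same high pair, at 94.7, 180, 162 and 96.6, while the third and dimmest read 19.9, 28.6, 17.0 and 20.2 and was lowest on knockout 1.

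Canx and Calr encode calnexin and calreticulin, the lectins that hold glycoproteins for folding. Canx had 86.5, 135, 152 and 78.1, and all 3 of its kept probe sets were highest on knockout 1. Calr had 174, 243, 238 and 179, and after quantile normalization its values closed to 194, 221, 210 and 212. Hsp90b1, the ER form of Hsp90, had 86.3, 152, 117 and 95.7 and was highest on heterozygous 2 on both scales. Hyou1, an exchange factor for BiP, had 19.5, 24.3, 27.6 and 17.9. Its order was not kept, since after quantile normalization its highest array was heterozygous 1. Manf, a secreted ER stress factor, had 49.4, 92.8, 94.5 and 57.3, and Creld2, another protein induced by ER stress, had 15.7, 28.6, 30.8 and 13.3. Both had heterozygous 2 and knockout 1 close together and above the other arrays.

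Cochaperones of BiP were less alike. Sdf2l1, a partner of J proteins of the ER, had 6.42, 10.5, 19.8 and 6.31. Knockout 1 alone was high, at 3.08 times heterozygous 1 and 3.13 times knockout 2, and at 2.15 and 2.26 times after quantile normalization. Its log2 difference by label was 0.43 (SE 0.62). Dnajc3, the J protein p58IPK, had 23.1, 31.0, 41.5 and 20.8 and was also highest on knockout 1, where 2 of its 5 kept probe sets were highest. Dnajb9, the J protein ERdj4 that returns BiP to IRE1, had 53.1, 65.7, 46.6 and 48.1. It was among the 4 genes with both arrays labelled knockout below both labelled heterozygous (59.4 ± 8.87 against 47.3 ± 1.07, SD, n = 2 each), a log2 difference of −0.32 (SE 0.52), but the groups overlapped after quantile normalization.

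The 3 protein disulfide isomerases, which form and shuffle disulfide bonds, were all highest on knockout 1 and lowest on knockout 2, on both scales. Pdia3, which works with calnexin and calreticulin, had 80.5, 120, 157 and 62.7. Pdia4 had 3.57, 4.33, 8.43 and 2.43, and Pdia6, whose promoter element is shown above, had 17.7, 40.6, 47.8 and 16.8. The ratio of knockout 1 to knockout 2 was 2.51, 2.84 and 3.47 for Pdia3, Pdia6 and Pdia4, and 1.79, 2.00 and 2.78 after quantile normalization. Over the 10 chaperones and cofactors, the median position of knockout 1 relative to each gene's mean was 0.45 on the log2 scale (0.23 after quantile normalization), and over the 3 isomerases 0.79 (0.54), where all genes had 0.19 (0.01).

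Degradation genes did not share that order. Herpud1, a ubiquitin-domain protein of the degradation complex, had 31.8, 52.6, 44.6 and 29.8, and Sel1l, the scaffold of the ligase, had 28.9, 50.3, 32.7 and 29.9. Syvn1, the ubiquitin ligase HRD1, had 12.7, 20.7, 14.5 and 15.3, and Edem1, which draws mannose-trimmed glycoproteins into degradation, had 29.5, 39.7, 34.9 and 32.5. In all 4 genes heterozygous 2 was the highest as deposited, and after quantile normalization it still was for Herpud1 and Sel1l but not for Syvn1 and Edem1. Sec61b, a subunit of the translocon through which proteins enter the ER, was unlike them, with 61.3, 108, 124 and 67.3. The median position of knockout 1 over the 6 genes of this role was −0.02 as deposited and −0.27 after quantile normalization, below all other arrays on the second scale.

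Derl3, a derlin of the degradation channel found mainly in secretory cells, had 3.27, 3.44, 1.05 and 2.79. The array labelled knockout 1 was low and the other 3 were close, and both arrays labelled knockout lay below both labelled heterozygous on both scales. The value of knockout 1 was close to the array median, where signals are imprecise. The means were 3.36 ± 0.114 and 1.92 ± 1.23 (SD, n = 2 each), a log2 difference of −0.83 (SE 0.48), the lowest among the 33 genes. Without knockout 1 the difference was −0.24. Plasma cell markers, 8 of 8 listed measured, summed to 650, 296, 342 and 272, a sum carried mostly by Igha and not lowest on knockout 1. Their median position after quantile normalization was lowest on knockout 1, as Derl3 was, at 0.57, −0.24, −0.51 and −0.10. Jchain (205, 34.9, 34.1 and 39.6), Mzb1 (4.25, 2.02, 1.16 and 1.95), Cd79a and Pou2af1 were each lowest there, Jchain by little. The rest of the list was not, with Igha lowest on knockout 2 and Tnfrsf17 and Irf4 lowest on heterozygous 2. Sdc1 (21.1, 52.2, 66.9 and 25.7) was highest on knockout 1. Pancreatic acinar markers, 7 of 9 listed, summed to 4.68, 16.6, 5.01 and 75.8, with Cpa1 below 0.2 on all arrays but knockout 2. The part of these cells in the Derl3 values was not tested. In such isolates fewer cells of a type and less RNA per cell cannot be told apart.

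The sensors and factors followed no single order. Atf6 had 6.45, 8.61, 8.003 and 5.45, and Ern1, the ubiquitous IRE1, had 10.7, 12.4, 8.82 and 10.6. Ern1 was lower on both arrays labelled knockout (log2 difference −0.25, SE 0.52), though after quantile normalization knockout 2 read 12.9 and the groups overlapped. Ern2, the IRE1 of mucous epithelium, had 1.68, 3.10, 2.99 and 2.98, so that heterozygous 1 alone was low (log2 difference 0.34, SE 0.44). Xbp1, the target of both, had 115, 156, 157 and 119, and after quantile normalization 134, 134, 139 and 140. The Xbp1 values were close together on that scale, and their small lead on both arrays labelled knockout put it among the genes whose groups did not overlap. The probe sets do not separate spliced from unspliced Xbp1 in the annotation used here, so these are levels of the gene and not of the active form.

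Ddit3, which encodes CHOP, the factor of prolonged ER stress, had 6.10, 4.90, 5.75 and 5.65. It did not follow the high pair of the chaperones and was lowest on heterozygous 2. Atf4 had 32.9, 51.2, 72.7 and 41.4, with knockout 1 the highest and means of 42.1 ± 12.9 and 57.0 ± 22.2 (SD, n = 2 each). After quantile normalization both arrays labelled knockout, at 62.4 and 50.998, were above both labelled heterozygous, at 41.2 and 42.1, while the log2 difference as deposited was 0.41 (SE 0.56). Atf5, a relative of ATF4 translated in the same way, had 1.41, 2.64, 6.63 and 1.66. Knockout 1 stood alone, at 4.70 times heterozygous 1, 2.51 times heterozygous 2 and 3.99 times knockout 2, and the labelled groups overlapped (log2 difference 0.71, SE 0.58). The Atf5 values of heterozygous 1 and knockout 2 were near the array median, where signals are imprecise, so the ratios to them are rough.

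Among ATF4 targets, 3 genes of amino acid synthesis were highest on knockout 1. Asns, asparagine synthetase, had 10.9, 23.4, 48.4 and 9.73. Knockout 1 was the highest and heterozygous 2 the second, and the labelled groups overlapped, with means of 17.2 ± 8.82 and 29.0 ± 27.3 (SD, n = 2 each) and a log2 difference of 0.44 (SE 0.74). The other kept probe set of Asns had 3.89, 16.3, 40.3 and 5.402, in the same order apart from the lowest pair. Phgdh, the first enzyme of serine synthesis, had 4.30, 10.8, 35.4 and 3.92, and all 4 of its kept probe sets were highest on knockout 1. The suffix of these Phgdh probe sets marks probes that may also bind related sequences. Psat1, the next enzyme of that path, had 2.87, 4.32, 10.5 and 2.30 and both of its kept probe sets were highest on knockout 1.

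Knockout 1 stayed the highest array for Asns, Psat1 and Phgdh on both scales, with smaller ratios to heterozygous 1 and knockout 2 on the second. After quantile normalization knockout 1 was 3.04, 2.13 and 3.55 times heterozygous 1, heterozygous 2 and knockout 2 for Asns. For Psat1 the ratios were 2.78, 2.31 and 3.69, and for Phgdh 5.92, 3.28 and 6.75. The labelled differences were 0.47 (SE 0.61) for Psat1 and 0.78 (SE 0.84) for Phgdh, each smaller than its standard error. Without knockout 1 the differences of Asns, Psat1 and Phgdh were −0.70, −0.55 and −0.76.

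Chac1, a glutathione-degrading enzyme whose promoter core is shown above, had 0.162, 1.56, 6.34 and 0.694. Heterozygous 1 and knockout 2 were below the array median, where signals are imprecise, so the ratios to them are given only as a direction, and knockout 1 was 4.07 times heterozygous 2. The log2 difference by label was 1.45 (SE 0.81), the highest of the 33 genes, and the limma unadjusted p was 0.0969. Without knockout 1 the mean of Chac1 fell below the filter minimum of 0.971, and the gene was not fitted. It was therefore kept only through the array on which it was highest. Without knockout 2 the log2 difference was 2.81, with 1 array left in that group, which is assumed to vary like the other. In the limma fits of all 4 arrays that kept Chac1, its adjusted p was 0.59 or higher.

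Other targets of ATF4 in the list had another order. Trib3, a pseudokinase that restrains ATF4, had 2.89, 4.31, 3.11 and 2.10, and its log2 difference by label was −0.42 (SE 0.44). Ppp1r15a, which encodes GADD34 and restores translation by dephosphorylating eIF2, had 2.21, 4.79, 3.51 and 2.64. Both were highest on heterozygous 2. Sesn2, a stress-induced inhibitor of mTORC1 signalling, had 3.06, 3.94, 1.55 and 2.93 and was lowest on knockout 1. Both arrays labelled knockout lay below both labelled heterozygous on both scales for Sesn2 (3.50 ± 0.623 against 2.24 ± 0.977, SD, n = 2 each), with a log2 difference of −0.62 (SE 0.45). Without knockout 1 the Sesn2 difference was −0.22, and averaged over the probe sets of the gene it was −0.29. The knockout 1 value of Sesn2 was near the array median, where signals are imprecise. The 7 genes of this role therefore divided, with Asns, Psat1, Phgdh and Chac1 highest on knockout 1 and Trib3, Sesn2 and Ppp1r15a highest on heterozygous 2.

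**Figure D2:**
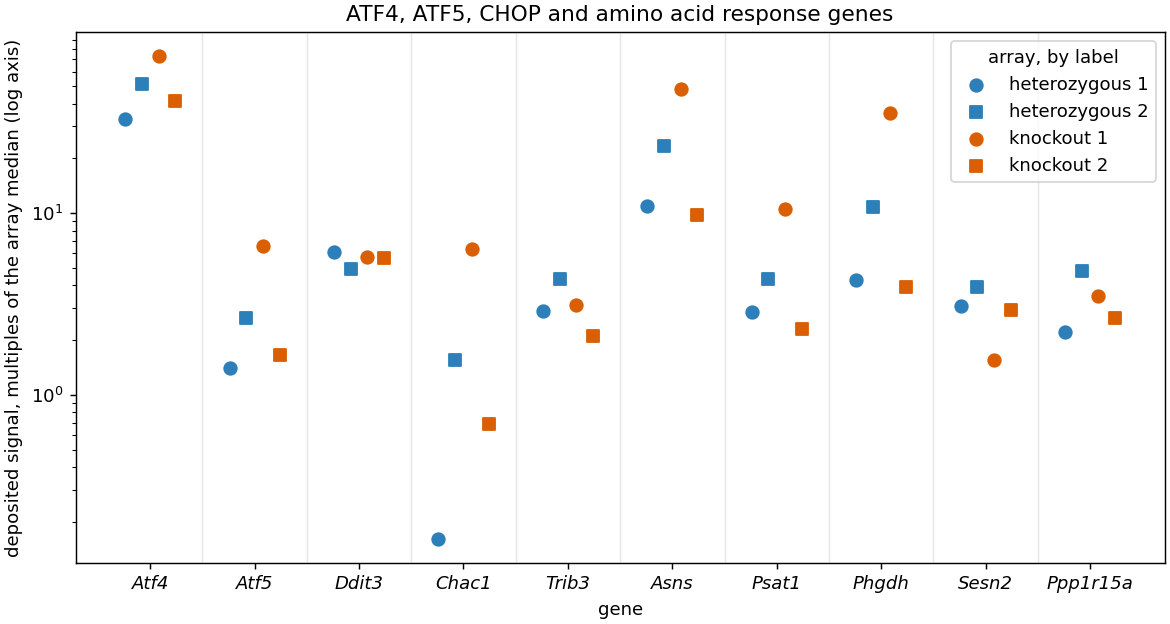
Points give the deposited signal in multiples of the array median (log axis) of 10 genes on each of the 4 arrays, with colour for the label and shape for the replicate number. Knockout 1 is the highest point for Atf4, Atf5, Chac1, Asns, Psat1 and Phgdh and the lowest for Sesn2.

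Set within the pairs of 1 replicate number, the quantile-normalized values placed knockout 1 at least 2-fold above heterozygous 1 at 6 of 33 genes, against 9.34% of all genes. These were Sdf2l1, Atf5, Chac1, Asns, Psat1 and Phgdh. Derl3 and Sesn2 were at least 2-fold below, against 10.2% of all genes. In the pair numbered 2, 0 members were 2-fold above and 0 were 2-fold below on that scale, against 3.39% and 3.20% of all genes, counted with the pseudocount added, without which Phgdh and Chac1 were at 0.485 and 0.456 times. Each of the 6 genes that were 2-fold higher on knockout 1 than on heterozygous 1 was lower on knockout 2 than on heterozygous 2.

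**Figure D3:**
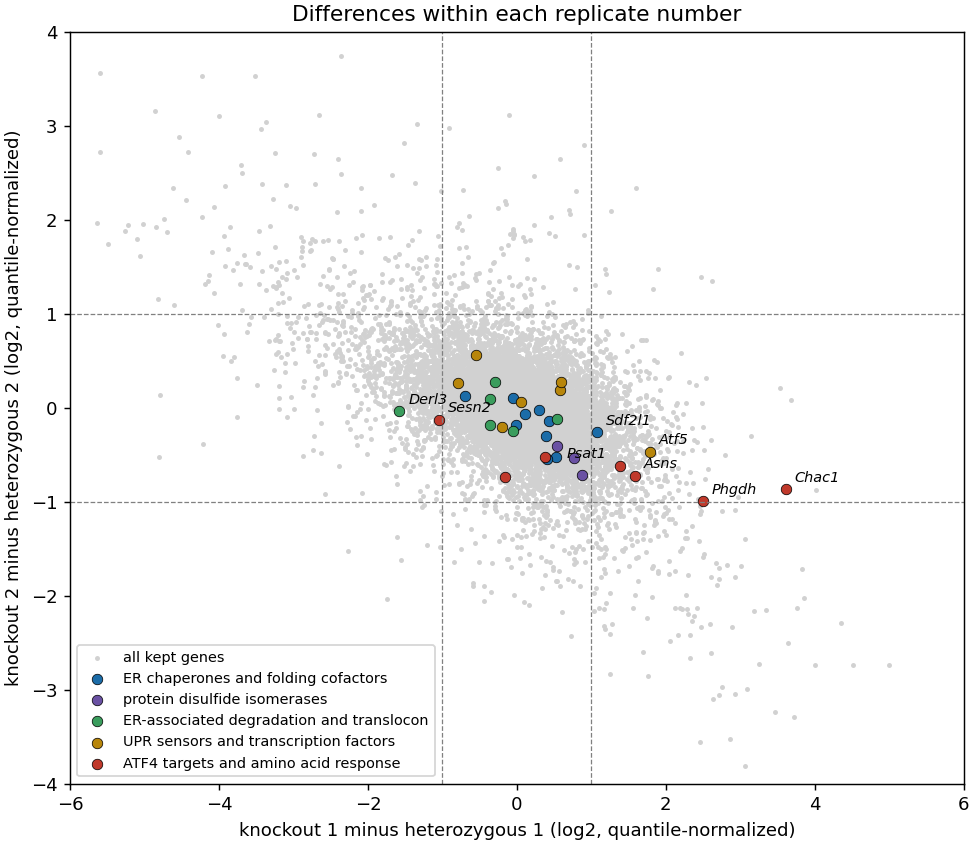
Each point is a gene, with the log2 difference of knockout 1 from heterozygous 1 on the horizontal and of knockout 2 from heterozygous 2 on the vertical axis (quantile-normalized, dashed lines at 2-fold), grey for all kept genes except 10 outside the drawn range and coloured by role for the 33 members. Phgdh, Chac1, Asns, Psat1 and Atf5 lie to the lower right, Derl3 and Sesn2 to the left, and most others within the dashed square.

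Other genes of the pathway, listed for their roles, were examined in the same way, and 84 of 89 had a probe set of their own. Of these, 79 were kept and 0 passed the adjusted threshold in limma, with 0 at an unadjusted p under 0.05. Among 19 other ATF4 targets, 13 were highest on knockout 1 (12 after quantile normalization). All 12 aminoacyl-tRNA synthetases, which charge tRNAs with amino acids, were highest on knockout 1 on both scales, where 42.6% and 35.6% of all genes were. Their brightest members by rule, Gars and Nars, had 18.8, 39.0, 66.5 and 19.0, and 59.1, 95.6, 155 and 59.7. The synthetases in this respect went with Asns and Phgdh rather than with Trib3 and Sesn2.

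Within the other ATF4 targets, the members named by rule did not share the pattern. Slc3a2, the heavy chain of amino acid exchangers, had 66.4, 74.99, 43.8 and 64.9 and was lowest on knockout 1, and Aldh18a1, of proline synthesis, had 101, 145, 106 and 129. Genes chosen after their values were seen were Mthfd2, of mitochondrial folate metabolism, at 3.37, 5.13, 24.5 and 2.94, Shmt2, which makes glycine from serine, at 5.37, 10.9, 30.2 and 5.64, and the leucine carrier gene Slc7a5 at 0.106, 1.60, 6.52 and 0.264. In these 3 knockout 1 was again far above the rest, though Slc7a5 was below the array median on heterozygous 1 and knockout 2, where signals are imprecise.

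The remaining lists were divided between knockout 1 and heterozygous 2, as most genes were. Of all 11326 kept genes, 4826 were highest on knockout 1 and 4283 on heterozygous 2, and 4027 and 2130 after quantile normalization. Of 18 other folding enzymes 7 were highest on knockout 1 and 9 on heterozygous 2, with P4hb, the founding disulfide isomerase, at 409, 456, 445 and 346, and Ppib, an ER prolyl isomerase, at 118, 207, 231 and 120. Of 22 other degradation and translocon genes 9 and 13 were, with Vcp, the ATPase that pulls substrates from the membrane, at 102, 147, 172 and 94.6, and the signal peptidase gene Spcs1 at 71.0, 133, 127 and 72.7. Of 13 other sensors and factors 6 and 7 were. After quantile normalization the counts were 8 and 6 for the folding enzymes, 10 and 7 for the degradation and translocon genes, and 5 and 4 for the sensors and factors. Creb3l3, an ATF6-like factor of liver and gut, had 128, 194, 168 and 101, and Nfe2l2, the oxidative stress factor NRF2, had 92.5, 140, 154 and 96.7.

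Markers of cell types moved between the arrays as well. Proliferating crypt cell markers (10 of 11 listed measured, all above 2 on every array) summed to 157, 251, 484 and 160 and were highest on knockout 1 at 10 of 10, which is the order of Asns, Psat1 and Phgdh at the top. T cell markers (9 of 9) summed to 472, 96.7, 12.3 and 296 and were lowest on knockout 1. Absorptive enterocyte markers (9 of 10) summed to 4567, 3934, 3570 and 3715. Of these, 7 were highest on heterozygous 1, among them lactase, Lct, at 312, 82.3, 3.97 and 237. The other 2 were highest on knockout 1, Alpi at 588, 539, 590 and 485 and Fabp1 at 707, 770, 910 and 582. Of secretory cells, goblet markers (8 of 8) summed to 1971, 2059, 2088 and 1580. The goblet list was divided as deposited, with 3 genes highest on heterozygous 1, 2 on heterozygous 2 and 3 on knockout 1. Its median position after quantile normalization was lowest on knockout 1, at 0.15, 0.09, −0.21 and −0.003. Paneth markers (5 of 7) summed to 674, 319, 488 and 205, and myeloid markers (7 of 7) to 97.4, 37.0, 35.4 and 45.9. The part of any of these in the values of the ER and ATF4 genes was not tested.

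**Figure D4:**
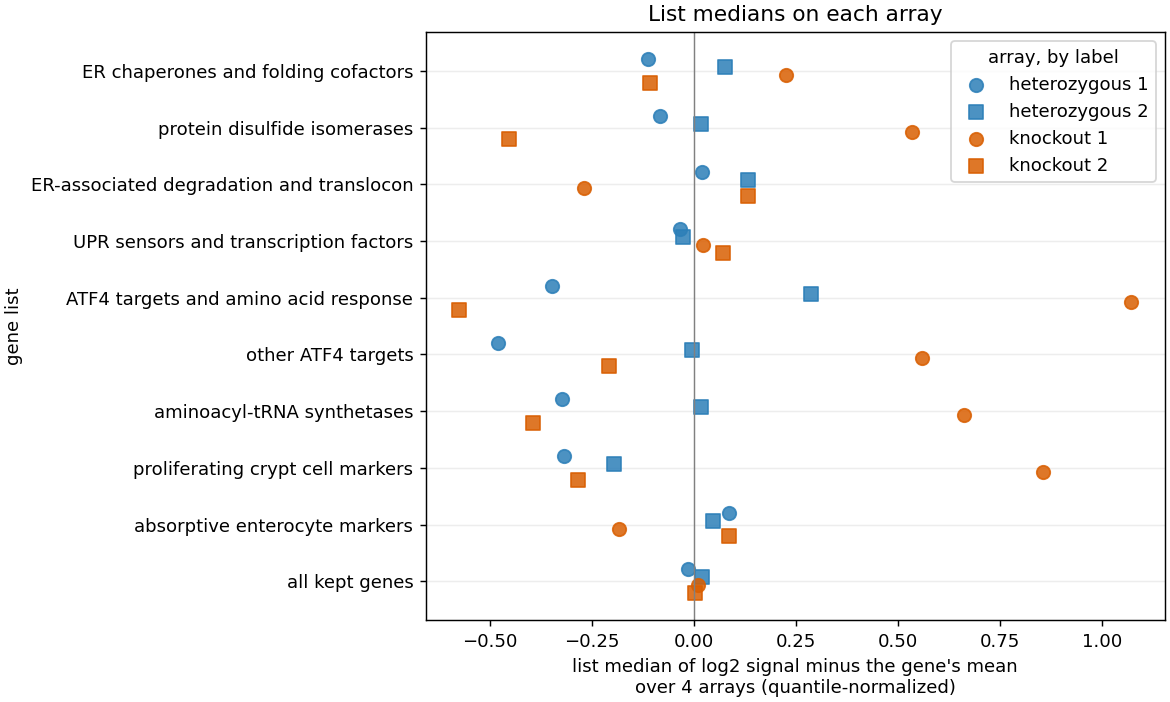
Each point is the median over a gene list of the quantile-normalized log2 signal on 1 array minus the gene's mean over the 4 arrays, with colour for the label and shape for the replicate number. Knockout 1 is at 1.07 for the ATF4 targets, 0.66 for the aminoacyl-tRNA synthetases and 0.86 for proliferating crypt cell markers, but at −0.27 for the degradation genes, where all genes are at 0.01.

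Genes with and without a promoter element are given side by side. Among the 9 genes with an ER stress element in the window, 5 were highest on knockout 1 and 4 on heterozygous 2. Among the 20 with a window and no such element 11 and 8 were, and of all 11326 kept genes 4826 and 4283 were. The ratio of knockout 1 to heterozygous 1 ran from 0.3197 for Derl3 to 2.70 for Pdia6 among the 9. Probe sets of 1 gene also bear on how far these values can be read. Of 21 members with more than 1 kept probe set, 11 had all of them on 1 side of zero in the labelled comparison.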

How the data were processed

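Total RNA of small intestinal epithelial cells, loosened with EDTA per the labels' protocols, was measured on 4 arrays. The deposited table holds 1 linear intensity per probe set and array, made by the authors with MAS5 per the submitters' processing notes, its version not being given in the sources used here. A rescaling of each array to a median near 1 is read from the values. No detection calls or scan dates were used, and precision is limited by having 4 arrays. Arrays shared at most 0.144% identical values, so 4 samples were counted.

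Of 45037 probe sets, 34945 were named for 1 gene by the platform annotation, 932 for several and 9160 for none, and 34741 identifiers were found in the RefSeq table (GRCm38.p6). Values were taken as log2(value + 0.32), the pseudocount being the 25th percentile of all values, which shrinks the differences of dim genes. Probe sets with a mean of at least 0.983, the median of means, were kept (22519), which kept all 33 members, Chac1 only through its value on knockout 1. Groups were compared by label with limma 3.58.1 in R 4.3.3 (intensity trend, Benjamini-Hochberg over all kept probe sets, threshold 0.05). The fit was tested on simulated data. An exact permutation test of 2 against 2 cannot go below 0.333 (two-sided) and was not used.

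The members, role lists, wider list, markers and motifs were chosen with earlier results of these data known. By rule all members were named, with the 2 brightest genes of each wider list. Any other gene of the pathway whose values are given is marked where it is named. Single genes of the marker lists were named under no such rule, with the values known. Alternatives were other pseudocounts (1 and 0.1), filters, scalings and variance models, a block, each array left out, an adjusted threshold of 0.10 and averaging over the probe sets of a gene.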

Additional observations from a re-analysis of the deposited data

How the results depend on the processing

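The count of members past the adjusted threshold stayed 0 in limma under every alternative run except without knockout 2, where it was 1 (Chac1), so that the range with 1 array left out was 0 to 1. Members whose labelled groups did not overlap numbered 4 of 33 (16.4% of all genes), 2 of 24 among the brightest 25% of probe sets (12.2%) and 7 of 33 after quantile normalization (22.8%). With 1 array left out they numbered 15 to 22, where 50.8% to 68.4% of all genes did not overlap. The median log2 difference was 0.72 on the arrays numbered 1 alone and −0.67 on those numbered 2 alone, a choice made after seeing the data, and −0.29 to 0.34 with 1 array left out.

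Signs of single genes turned as follows, with the cause not tested. With 1 array left out, log2 differences ranged from −0.46 to 0.58 for Hspa5, −0.048 to 0.72 for Ern2, −0.70 to 1.58 for Asns, −0.37 to 1.23 for Sdf2l1, −0.19 to 1.62 for Atf5, −0.55 to 1.49 for Psat1 and −0.76 to 2.32 for Phgdh. On the arrays numbered 2 alone the values were −0.83 for Hspa5, −0.71 for Sdf2l1, −0.050 for Ern2, −0.31 for Atf4, −0.58 for Atf5, −0.89 for Chac1, −1.24 for Asns, −0.83 for Psat1 and −1.39 for Phgdh. Trib3 was 0.10 on the arrays numbered 1 alone. No other setting turned a sign among the 14 genes whose differences are given.

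The replicate numbers are not stated to mark a shared litter, day or batch. Deviations of same-numbered arrays from their group means correlated at −0.51. Same-numbered arrays shared the male or the female pattern but differed in their 75th percentile, and this difference in scale can enter the correlation. The value therefore does not tell whether the numbers pair the arrays, and a shared litter, day or batch was not tested. With the replicate block 0 members passed, with a median of 0.03. With crossed pairs, chosen after seeing the data, 0 passed. Depth does not apply to these arrays, and signals near the array median are imprecise.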
